A study of Mus musculus with 10 samples.

Results

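The untreated time course of a mouse bone marrow culture was described from 5 arrays, the control arrays among the 10 of the series. Each control array held total RNA of 1 culture that received vehicle, taken at 4, 10, 24, 72 or 120 h. The marrow came from the long bones of male Swiss mice aged 4 to 6 weeks, and every culture, control or treated, grew in αMEM with 10% fetal calf serum and 10 nM calcitriol (1,25(OH)2D3). The other 5 arrays, from cultures with recombinant mouse adiponectin at 5 µg/ml taken at the same 5 times, were used only for comparison. The title of the series speaks of lipopolysaccharide contamination, so that group is adiponectin as supplied and not the hormone alone. Members were chosen by label: the 72 and 120 h control arrays (late) were set against those of 4, 10 and 24 h (early), and a slope on log2 hours was fitted over all 5. The labels give no second culture at any time and do not say whether cultures shared animals. The spread within the early or the late set therefore also holds change between times, and a p-value reflects no more than how these 5 samples scatter.

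Marrow plated with calcitriol holds stromal cells, macrophage precursors and many other blood cells. Calcitriol acts through the vitamin D receptor, which in stromal cells raises RANK ligand (Tnfsf11). RANK ligand, together with M-CSF (Csf1), turns monocyte-lineage precursors into osteoclasts, the fused, multinucleate cells that resorb bone by pumping acid and secreting cathepsin K. At 4 h the cultures carried the defining transcripts of several marrow lineages: Mpo of granulocyte precursors was at 13.23, Cd79a of B cells at 12.22, Alas2 of red cell precursors at 12.66 and Itga2b of megakaryocytes at 11.83, on an array whose median over named genes was 8.41 (all levels are log2 values). In whole cultures, fewer cells of a type and less RNA per cell cannot be told apart.

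Late and early cultures differed broadly. Of 19938 genes, 614 (3.08%) rose and 733 (3.68%) fell between the early and the late arrays, at a limma adjusted p under 0.05. Of these, 217 rises and 345 falls were at least 2-fold, and 32 rises and 107 falls at least 4-fold. The levels of each called gene did not overlap between the sets. Such a lack of overlap was common: 31.5% of all genes had both late values above all early ones and 15.7% had both below. The shares of 3.08% and 3.68% are the background for the counts of each gene list below. By the slope on log2 hours, 513 genes (2.57%) rose and 490 (2.46%) fell. Where the text says only that a gene did not pass the test, the comparison of late with early arrays is meant. Just inside the threshold lay Robo1, 0.80 higher late, and just outside it Pkia, 0.58 higher. Robo1 lost its call with 1 array left out (in brackets, here and below, the time of the array: 4, 10, 72 or 120 h), with an adjusted p of up to 0.356.

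The count of calls rests on few arrays. The ordinary test of the same model, which takes each gene's spread from 3 residual degrees of freedom alone, called 0 rises and 1 fall (2310 and 1347 genes at an unadjusted p under 0.05), so the calls depend on the sharing of spread across genes in limma. Without the 4 h array 185 genes rose and 371 fell, without the 10 h array 325 rose, without the 72 h array 393 rose, and without the 120 h array 88 rose and 258 fell. For 2 late against 3 early arrays, an exact permutation test of 1 gene cannot give a p below 0.1. The slope calls fell from 513 rises to 189 without 10 h, 338 without 24 h, 229 without 72 h and 70 without 120 h, and from 490 falls to 317 without 4 h, 164 without 10 h, 277 without 72 h and 84 without 120 h. Centring each array on its median gave 730 rises and 1182 falls between late and early arrays. For the slope it gave 591 rises and 965 falls, a share of rises among calls of 38.0% against 51.1% in the reported fit.

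The dimmer genes carried a small common shift. With genes ranked by mean level into 10 equal bins from dim to bright, the share of genes that were higher late ran from 73.57% to 87.56% in bins 2 to 5, with medians of 0.13 to 0.18. In the 4 brightest bins the medians lay between -0.01 and -0.05. The adiponectin arrays had medians of -0.03 to -0.06 over the same dim bins. Over all genes the control median was 0.08, below that of these dim bins, so a small rise of a dim gene lies close to the shift of its bin.

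**Figure D1:**
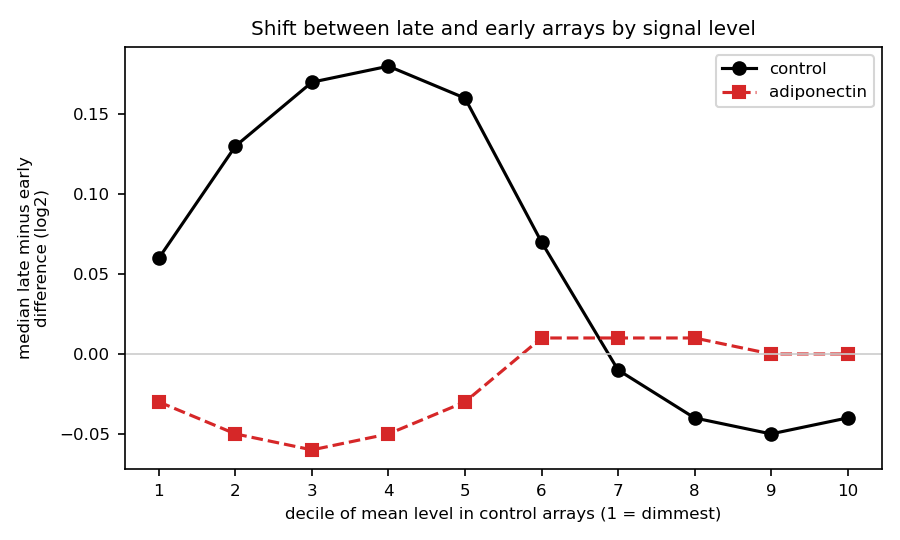
Median late minus early difference (vertical axis, log2) in each of 10 equal bins of the 19938 genes ranked by mean level in the control arrays (horizontal axis, bin 1 dimmest), for control arrays (black circles) and adiponectin arrays (red squares). The control medians reach 0.18 in bin 4 and -0.05 in bin 9, while the adiponectin medians stay between -0.06 and 0.01.

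Osteoclast genes were 5 of the 12 largest rises, the 3 largest among them. Oscar, the osteoclast-associated immunoglobulin-like receptor, was at 8.46, 8.31 and 9.51 at 4, 10 and 24 h and at 12.44 and 12.40 at 72 and 120 h. It rose by 3.66 ± 0.32 (log2 difference ± SE, 2 late against 3 early arrays, 12.6-fold; limma adjusted p = 0.00127), the highest rise of any gene. Ctsk, cathepsin K, the collagen-degrading protease of the osteoclast, was at 10.01, 9.74, 11.35, 13.50 and 13.51 and rose by 3.14 ± 0.41 (8.8-fold; adjusted p = 0.00593). Slc9b2, a sodium/proton exchanger of osteoclasts, went from 8.16, 8.18 and 9.11 to 11.88 and 11.63. Both fusion proteins rose: Ocstamp from 8.40, 8.53 and 9.52 to 11.78 and 11.50, and Dcstamp from 8.22, 8.40 and 9.05 to 11.05 and 11.09. In all 5 genes the 24 h value already lay above the 4 and 10 h values, most of the rise fell between 24 and 72 h, and the 72 and 120 h values lay close together.

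The windows before the annotated starts of 3 of these genes are shown because the genes rose together most steeply. They are the 200 bases before the start in RefSeq (GRCm38.p6), 5′ to 3′ on the gene's strand, with any match in capitals to one of 3 motifs, searched on either strand: GGAAA, the core of NFAT sites, then TGANTCA, the site of AP-1 factors, and as the last of them CACGTG, an E-box (no matches overlap here).
Oscar (chr7:3616158-3616357, minus strand): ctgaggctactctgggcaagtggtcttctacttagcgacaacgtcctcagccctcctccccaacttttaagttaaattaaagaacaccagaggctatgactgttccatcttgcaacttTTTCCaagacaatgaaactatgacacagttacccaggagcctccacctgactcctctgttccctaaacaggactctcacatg
Ctsk (chr3:95499010-95499209, plus strand): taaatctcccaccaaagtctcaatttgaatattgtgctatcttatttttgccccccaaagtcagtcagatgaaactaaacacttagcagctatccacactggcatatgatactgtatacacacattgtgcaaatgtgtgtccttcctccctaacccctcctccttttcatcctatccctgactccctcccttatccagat
Slc9b2 (chr3:135307500-135307699, plus strand): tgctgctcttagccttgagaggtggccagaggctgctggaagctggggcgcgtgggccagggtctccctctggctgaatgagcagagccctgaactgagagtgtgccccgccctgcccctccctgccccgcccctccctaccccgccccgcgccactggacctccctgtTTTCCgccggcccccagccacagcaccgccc
Oscar and Slc9b2 each held 1 GGAAA match, read on the opposite strand, and Ctsk held none of the 3 motifs. Over windows of 300 bases (250 before and 50 after the start), 20 of the 31 measured osteoclast genes had a window: 65.0% held GGAAA against 64.0% of 15614 array genes, 10.0% held TGANTCA against 8.1%, and 5.0% held CACGTG against 9.5%. These motifs were chosen after the expression values were seen.

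Of 31 measured osteoclast genes, 19 rose and 1 fell, against 3.08% and 3.68% of all genes. Their median difference was 0.99, against 0.08 over all genes, and 13 to 20 rose with 1 array left out. Acp5, tartrate-resistant acid phosphatase, rose from 12.42, 12.22 and 12.73 to 13.83 and 13.92. Calcr, the calcitonin receptor of mature osteoclasts, was at 7.15, 7.13 and 6.91 early and at 8.74 and 9.48 late, a rise of 2.05 ± 0.21. Among the upstream regulators, Tnfrsf11a (RANK, the receptor for RANK ligand) rose by 0.74 ± 0.14 and Nfatc1, the transcription factor that RANK induces, by 0.68 ± 0.14. Nfatc2 rose by 0.93 ± 0.16 and Jdp2, a partner of AP-1 factors, by 1.09 ± 0.17. Src, a kinase of the ruffled border, was at 9.97, 9.88, 10.33, 10.58 and 10.71 (0.58 ± 0.16; adjusted p = 0.0669; its slope of 0.16 per doubling was called, adjusted p = 0.0406, lost without the 10, 24, 72 or 120 h array). Car2, the carbonic anhydrase that supplies protons, was at 10.29, 9.40, 9.17, 10.70 and 10.64 (1.05 ± 0.29; adjusted p = 0.0742). Neither passed the test of late against early. The single fall was Itgb3, integrin beta 3, which osteoclasts share with platelets: it was at 12.23, 12.10 and 12.15 early and 11.21 and 10.99 late, and is also in the megakaryocyte list. The call was lost with 1 array left out for Nfatc2 and Jdp2 (120 h), and Tnfrsf11a and Nfatc1 (4, 72 or 120 h), with adjusted p up to 0.177.

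**Figure D2:**
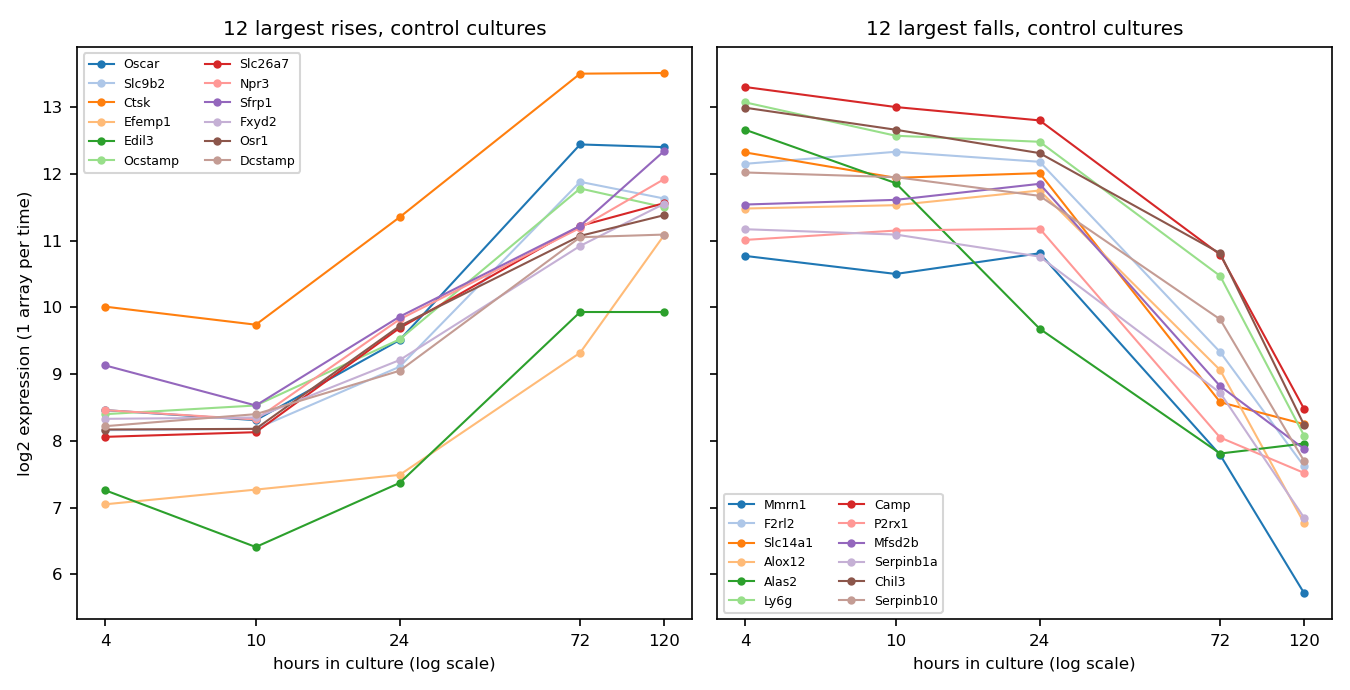
Levels (vertical axis, log2, 1 array per time) of the 12 genes with the largest rises (left) and the 12 with the largest falls (right) in the control cultures against hours in culture (horizontal axis, log scale). Oscar, Ctsk and Slc9b2 climb between 24 and 72 h and are flat after it, and Efemp1 climbs on to 11.08 at 120 h. Alas2 falls more before 24 h than after it, while the other falls come mostly after 24 h.

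The machinery of bone resorption rose in part. Of 17 measured subunits of the vacuolar proton pump, which acidifies the resorption pit and all lysosomes, 4 rose and 0 fell, with a median of 0.26. Atp6v0d2, the osteoclast subunit of the pump, was at 12.25, 12.22 and 12.34 early and 13.37 and 13.43 late, a rise of 1.13 ± 0.11. Atp6v1e1 rose by 0.65 ± 0.14, Atp6v1d by 0.57 ± 0.11 and Atp6v1b2 by 0.55 ± 0.13. With 1 array left out 1 to 3 subunits rose, 1 of them without the 4, 72 or 120 h array and 2 without the 24 h array. Clcn7, the chloride/proton exchanger of the ruffled border, rose by 0.94 ± 0.12, and Snx10, a sorting nexin needed for resorption, by 1.13 ± 0.16. Of 30 measured lysosomal genes and cathepsins, 0 rose and 0 fell by limma (7 and 3 at an unadjusted p under 0.05), with a median of 0.05; 2 rose with repeated quantile normalization, and 2 without the 24 h array. In their 300-base windows, 42.3% of 26 lysosome genes held CACGTG against 9.5% of array genes, a description of the list and not of its change. Calls lost with 1 array left out were those of Atp6v1d (4, 72 or 120 h), Atp6v1e1 (4, 24, 72 or 120 h), and Atp6v1b2 (4, 10, 24, 72 or 120 h), with adjusted p up to 0.401.

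Matrix metalloproteinases went both ways. Of 17 genes of metalloproteinases and their inhibitors, 4 rose and 2 fell; 2 rose without the 4, 10 or 120 h array and 7 without 24 h. Mmp2, gelatinase A of stromal cells, rose from 9.26, 9.33 and 10.31 to 11.42 and 11.91 (2.04 ± 0.31). Mmp9, gelatinase B of osteoclasts and neutrophils, rose from 12.82, 12.68 and 12.90 to 13.81 and 14.08 (1.14 ± 0.13). Mmp25, a membrane metalloproteinase of neutrophils, fell from 11.32, 10.99 and 10.86 to 9.35 and 7.82. Timp3, a tissue inhibitor of metalloproteinases, had its lowest value at 72 h, at 10.30, and was at 11.04 at 120 h, both below the early values of 12.01 to 12.15.

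Stromal and niche genes rose next to the osteoclast genes. Of 24 measured, 12 rose and 0 fell, with a median of 0.61. Adipoq, the gene of adiponectin itself, which marrow stromal progenitors and fat cells make, was at 7.57, 7.12 and 7.74 early and climbed to 9.16 and 10.59 (2.39 ± 0.37; 5.3-fold; adjusted p = 0.0112). Kitl, stem cell factor, went from 9.59, 8.78 and 9.86 to 10.78 and 11.67, and Cxcl12, the chemokine that holds stem cells in the niche, from 10.37, 9.72 and 10.82 to 11.38 and 12.48. Both platelet-derived growth factor receptors rose, Pdgfra by 1.09 ± 0.20 and Pdgfrb by 0.96 ± 0.17. Igfbp4 and Igfbp5, which bind insulin-like growth factors, rose by 1.49 ± 0.28 and 0.85 ± 0.14, and Mgp, matrix Gla protein, by 1.11 ± 0.16. Adipoq, Kitl and Cxcl12 were higher at 120 h than at 72 h by 1.43, 0.89 and 1.10 on the log2 scale. The number of stromal calls leaned on single arrays: 4 rose without the 4 h array, 7 without 10 h, 8 without 72 h and 2 without 120 h. The call did not hold with 1 array left out for Igfbp5 (72 h), Mgp (120 h), Kitl, Pdgfra and Pdgfrb (4 or 120 h), and Cxcl12 and Igfbp4 (4, 10 or 120 h), with adjusted p up to 0.265.

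Several of the largest rises outside the gene lists were of genes of secreted or matrix proteins. Efemp1, the matrix protein fibulin-3, rose from 7.05, 7.27 and 7.49 to 9.32 and 11.08 (2.93 ± 0.43). Edil3, an integrin-binding matrix protein, went from 7.26, 6.41 and 7.37 to 9.93 and 9.93. Sfrp1, a secreted Wnt antagonist, went from 9.13, 8.53 and 9.86 to 11.22 and 12.34. Npr3, the clearance receptor for natriuretic peptides, Slc26a7, an anion transporter, and Osr1, a zinc finger transcription factor, each gained over 1 log2 unit between 10 and 24 h and rose by 2.69 ± 0.43, 2.77 ± 0.44 and 2.53 ± 0.43. Fxyd2, a regulatory subunit of the sodium pump, rose by 2.60 ± 0.29. Of the steep slopes, Ppy, pancreatic polypeptide, climbed at every step, at 9.62, 10.14, 11.00, 12.38 and 13.07, by 0.72 ± 0.05 log2 units per doubling of the hours. Stc1, the hormone stanniocalcin 1, and Cxcl13, a chemokine that attracts B cells, rose by 0.74 ± 0.09 and 0.67 ± 0.07 per doubling. The call was lost with 1 array left out for Npr3 and Slc26a7 (120 h), and Osr1 (10 or 120 h), with adjusted p up to 0.0679.

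Few osteoblast, fat cell and endothelial genes passed the test. Of 12 measured osteoblast genes, 1 rose (Omd, osteomodulin, 0.74 ± 0.14) and 0 fell, with a median of 0.41; 6 rose without the 24 h array and 0 without the 4 h or the 120 h array. Alpl, alkaline phosphatase, differed by 1.07 and Col1a1, a chain of type I collagen, by 0.74, and neither passed the test of late against early. By slope 3 osteoblast genes rose, among them Alpl, by 0.32 ± 0.06 per doubling (adjusted p = 0.0247; 0.0628 without the 120 h array). Sp7 (osterix), the osteoblast transcription factor, was at 8.08, 8.29, 9.25, 9.49 and 8.37, highest at 24 and 72 h. Runx2, Spp1 and the osteocalcin genes were not analysed here, because no probe set carried their symbol alone. Beside Adipoq, which counts in both lists, 1 of 14 adipocyte genes rose (Plin4, a lipid droplet coat protein, 0.81 ± 0.19) and 1 fell (Dgat2, which makes triglyceride, -1.16 ± 0.13). Of 15 endothelial genes 0 rose and 2 fell, against 3.08% and 3.68% of all genes. The falls were Vwf (-1.92 ± 0.17) and Esam (-1.28 ± 0.17), both of which platelets also carry. Cdh5, the vascular cadherin, peaked at 72 h, at 10.67 against 9.58 to 9.98 at the other times, and did not pass the test. Calls lost with 1 array left out were those of Omd (4 or 120 h), and Plin4 (4, 10, 24 or 120 h), with adjusted p up to 0.366.

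**Figure D3:**
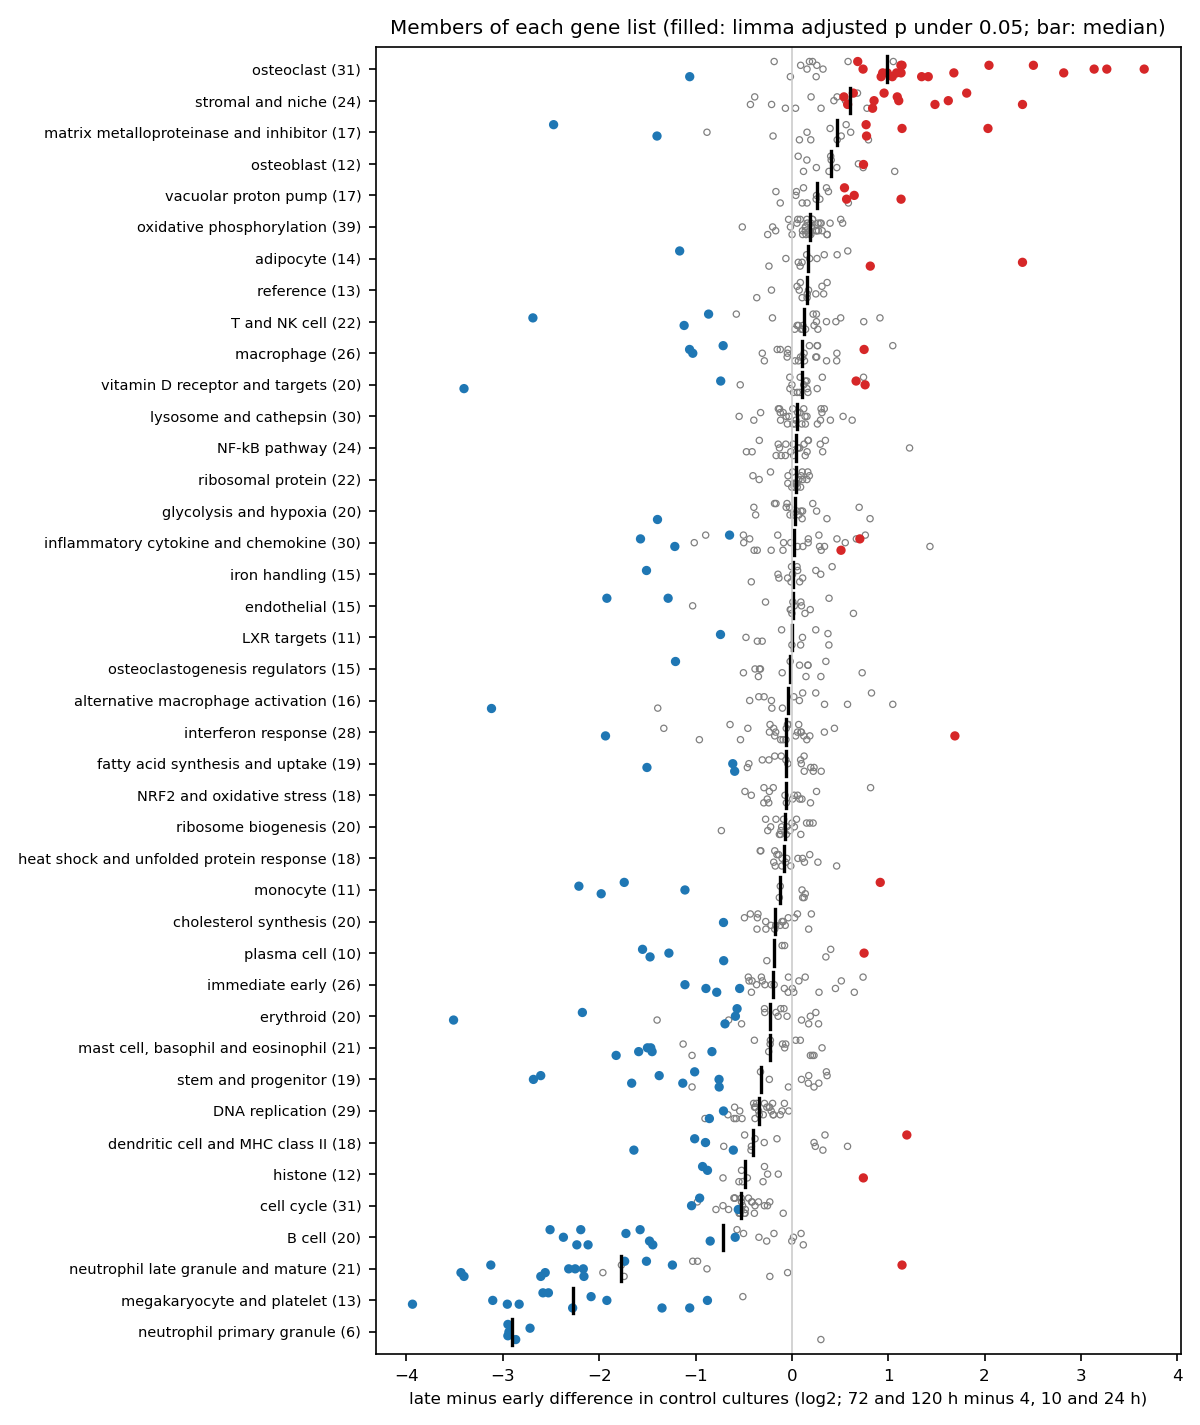
Late minus early difference in the control cultures (horizontal axis, log2) of every measured member of the 41 gene lists (rows, number of genes in brackets), with members at an adjusted p under 0.05 filled, red for rises and blue for falls, and the list's median as a black bar. Medians run from -2.90 for primary granule genes to 0.99 for osteoclast genes, and several lists in the middle hold members on both sides.

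The regulators of osteoclast formation and the vitamin D genes gave few calls. Of 15 measured regulators, 0 rose and 1 fell, Il1a, interleukin 1 alpha (-1.21 ± 0.14). Tnfsf11, RANK ligand, was at 9.59, 9.73, 10.31, 10.08 and 10.00, highest at 24 h. Tnfrsf11b, osteoprotegerin, the decoy receptor that blocks RANK ligand, was at 8.80, 8.26, 8.25, 8.42 and 9.06, lowest at 10 and 24 h. Their differences of 0.17 ± 0.20 and 0.30 ± 0.23 were within the spread between arrays. Csf1, M-CSF, differed by 0.73 and did not pass the test of late against early (adjusted p = 0.121), while its slope rose by 0.25 ± 0.04 per doubling (adjusted p = 0.0196; up to 0.0710 without the 4, 10 or 120 h array). Of 20 vitamin D receptor and target genes 2 rose and 2 fell, against 3.08% and 3.68% of all genes. S100g, calbindin-D9k, a classical calcitriol target, rose from 8.10, 7.91 and 8.15 to 8.58 and 9.05 (0.76 ± 0.16), and Txnip, a thioredoxin-binding protein, by 0.67 ± 0.12. Camp, cathelicidin, fell with the neutrophil genes, and Ramp1, a receptor activity-modifying protein, by 0.74 ± 0.15 on the log2 scale. Vdr, the vitamin D receptor, differed by 0.74 and did not pass that test (adjusted p = 0.172), while its slope rose by 0.26 ± 0.05 per doubling (adjusted p = 0.0364; up to 0.143 without the 4, 10, 72 or 120 h array). Every culture held calcitriol, and no array without it was compared. Cyp24a1 was not analysed here. With 1 array left out the call was lost for Txnip and Ramp1 (4 or 120 h), and S100g (4, 10, 24 or 120 h), with adjusted p up to 0.334.

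Nearly all megakaryocyte and platelet genes fell, after 24 h. Of 13 measured, 0 rose and 12 fell, with a median of -2.28 (9 to 13 fell under each scaling and with each array left out). Mmrn1, multimerin 1 of platelet granules, was at 10.77, 10.50 and 10.81 through 24 h, 7.79 at 72 h and 5.72 at 120 h, a fall of 3.94 ± 0.49 on the log2 scale (15.3-fold; adjusted p = 0.00511), the largest of any gene. Treml1, a platelet surface receptor, was at 11.63, 11.72 and 12.01 and then 9.64 and 9.40. Gp5 and Gp9, parts of the receptor for von Willebrand factor, fell: Gp5 fell by 2.95 ± 0.26 and Gp9 fell by 3.10 ± 0.50 on the log2 scale, and Tubb1, the platelet tubulin, by 2.83 ± 0.31. Genes outside the list that platelets use fell as far: F2rl2, a thrombin receptor, from 12.15, 12.33 and 12.18 to 9.33 and 7.62, Alox12, the platelet lipoxygenase, from 11.48, 11.53 and 11.75 to 9.06 and 6.77, and P2rx1, an ATP-gated channel, from 11.01, 11.15 and 11.18 to 8.05 and 7.52. At 24 h each of these genes was at or above its 4 h level. Pf4, platelet factor 4, differed by -0.51 and did not pass the test. The call was lost with 1 array left out for Gp9 (10 h), with an adjusted p of up to 0.0512.

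Neutrophil genes fell in 2 groups. The primary granule genes, made by granulocyte precursors, had the lowest median of all lists, -2.90, with 0 of 6 rising and 5 falling. Mpo, myeloperoxidase, was at 13.23, 13.05, 12.73, 11.22 and 9.36, and Elane, neutrophil elastase, at 13.38, 13.13, 12.88, 11.15 and 9.23: both fell at every step. Ctsg, cathepsin G, fell by 2.95 ± 0.45 and Prtn3, proteinase 3, fell by 2.87 ± 0.31 on the log2 scale. Bpi, a bactericidal granule protein, differed by 0.30 and did not pass the test. Of 21 genes of later granules and mature neutrophils, 1 rose (Mmp9, above) and 12 fell, with a median of -1.77. Ly6g, the surface marker of mouse neutrophils, was at 13.07, 12.57 and 12.48 early, 10.47 at 72 h and 8.08 at 120 h. Camp went from between 12.80 and 13.30 early to 10.79 and 8.48, and Ltf, lactoferrin, from 13.51, 13.44 and 13.22 to 11.96 and 9.61. Cxcr2, the chemokine receptor of mature neutrophils, held at 12.69, 12.77, 12.65 and 12.25 through 72 h and stood at 9.67 at 120 h. Retnlg, a resistin-like neutrophil gene, did the same, at 12.36 at 72 h and 9.78 at 120 h; neither passed the test of late against early. With 1 array left out, 5 to 18 of the 21 genes fell: 5 without the 4 h or the 10 h array, 7 without 24 h and 18 without 72 h. With an intensity trend and robust prior in the limma fit, 5 of these 21 genes and 2 of the 6 primary granule genes fell. Serpinb1a, an inhibitor of neutrophil proteases outside the list, fell by 3.22 ± 0.45 on the log2 scale. Calls lost with 1 array left out were those of Mpo and Ly6g (4 or 10 h), and Ltf (4, 10 or 24 h), with adjusted p up to 0.0957.

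Some red cell genes changed before 24 h. Alas2, the first enzyme of heme synthesis in erythroid cells, was at 12.66, 11.86 and 9.68 at 4, 10 and 24 h and at 7.81 and 7.96 at 72 and 120 h, the steepest slope of any gene, a fall of 1.08 ± 0.09 log2 units per doubling. Slc4a1, the anion exchanger band 3, was at 10.75, 9.37, 8.46, 8.09 and 8.16, so that most of its change came before 24 h; by slope it fell by 0.52 ± 0.08 log2 units per doubling (lost without the 4 or 10 h array, adjusted p up to 0.0552), and the late minus early test did not call it. Gata1, a transcription factor of red cells and megakaryocytes, followed the megakaryocyte course, at 10.02, 9.71 and 10.00 and then 7.74 and 7.72. In all, 5 of 20 erythroid genes fell and 0 rose, with a median of -0.22; 1 fell without the 72 h array, 1 without 120 h, 2 without 4 h and 3 without 10 h. The globin genes were not analysed here. The call of Alas2 between late and early arrays was lost with 1 array left out (4, 10, 72 or 120 h), with an adjusted p of up to 0.103.

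Genes of progenitors, mast cells, basophils and eosinophils fell in part. Of 19 stem and progenitor genes 0 rose and 8 fell: Myb, a transcription factor of dividing progenitors, went from 11.48, 11.13 and 10.79 to 9.09 and 7.97, and Slamf1, CD150, from 9.60, 9.57 and 9.89 to 7.50 and 6.51. Erg and Gfi1b, transcription factors of stem cells and megakaryocytes, fell as well (-1.38 ± 0.19 and -1.66 ± 0.12), and so did Cd34 (-1.13 ± 0.24). Without the 120 h array 4 were called. Of 21 genes of mast cells, basophils and eosinophils 0 rose and 6 fell, among them Prg2, eosinophil major basic protein (-1.82 ± 0.29), Prss34, a basophil protease (-1.46 ± 0.19), and Cpa3, mast cell carboxypeptidase (-1.45 ± 0.15). The call was lost with 1 array left out for Cd34 (4, 10, 24 or 120 h), with an adjusted p of up to 0.144.

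Among lymphoid genes the falls were mostly of B cell genes. Of 20 B cell genes 0 rose and 11 fell, with a median of -0.72. The median member moved by -0.76 from 24 to 72 h and by -0.19 from 72 to 120 h, and single genes differed in this. Vpreb3, of the family of surrogate light chain genes and the largest fall of the list, was at 11.21, 11.01, 10.83, 9.18 and 7.84. Igll1, a surrogate light chain, was at 10.42, 10.16, 9.78, 8.69 and 8.60, and Rag1, the recombinase, at 9.49, 8.92, 8.73, 7.71 and 7.49. Cd79a, the antigen receptor chain, was at 12.22, 12.33, 12.11, 11.12 and 8.94, and Ms4a1, CD20, at 10.37, 10.18, 10.45, 9.43 and 7.79. With 1 array left out 5 to 10 genes fell: 5 without the 4 h array, 5 without 10 h, 6 without 120 h and 7 without 24 h. Of 10 plasma cell genes 1 rose and 4 fell, Irf4 (-1.55 ± 0.18), Igha, Ighm and Mzb1, and the rise was Sdc1, syndecan 1, at 0.75 ± 0.16. Of 22 T and NK cell genes 0 rose and 3 fell. Nkg7, a cytotoxic granule protein, fell from 11.64, 10.84 and 10.45 to 8.90 and 7.68. Of the T cell receptor complex, Cd3d fell by 0.86 ± 0.16 on the log2 scale, while Cd3e differed by 0.14 and did not pass the test. Without the 120 h array 1 T and NK cell gene fell, without 10 h 1 rose and without 72 h 2 rose; plasma cell falls numbered 2 without the 4 h or the 120 h array. Calls lost with 1 array left out were those of Rag1 (120 h), Ighm and Mzb1 (4 or 120 h), Cd79a (4, 10 or 24 h), Ms4a1 (4, 10, 24 or 120 h), and Sdc1 (4, 10, 72 or 120 h), with adjusted p up to 0.271. The call of Cd3d was not followed with arrays left out.

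**Figure D4:**
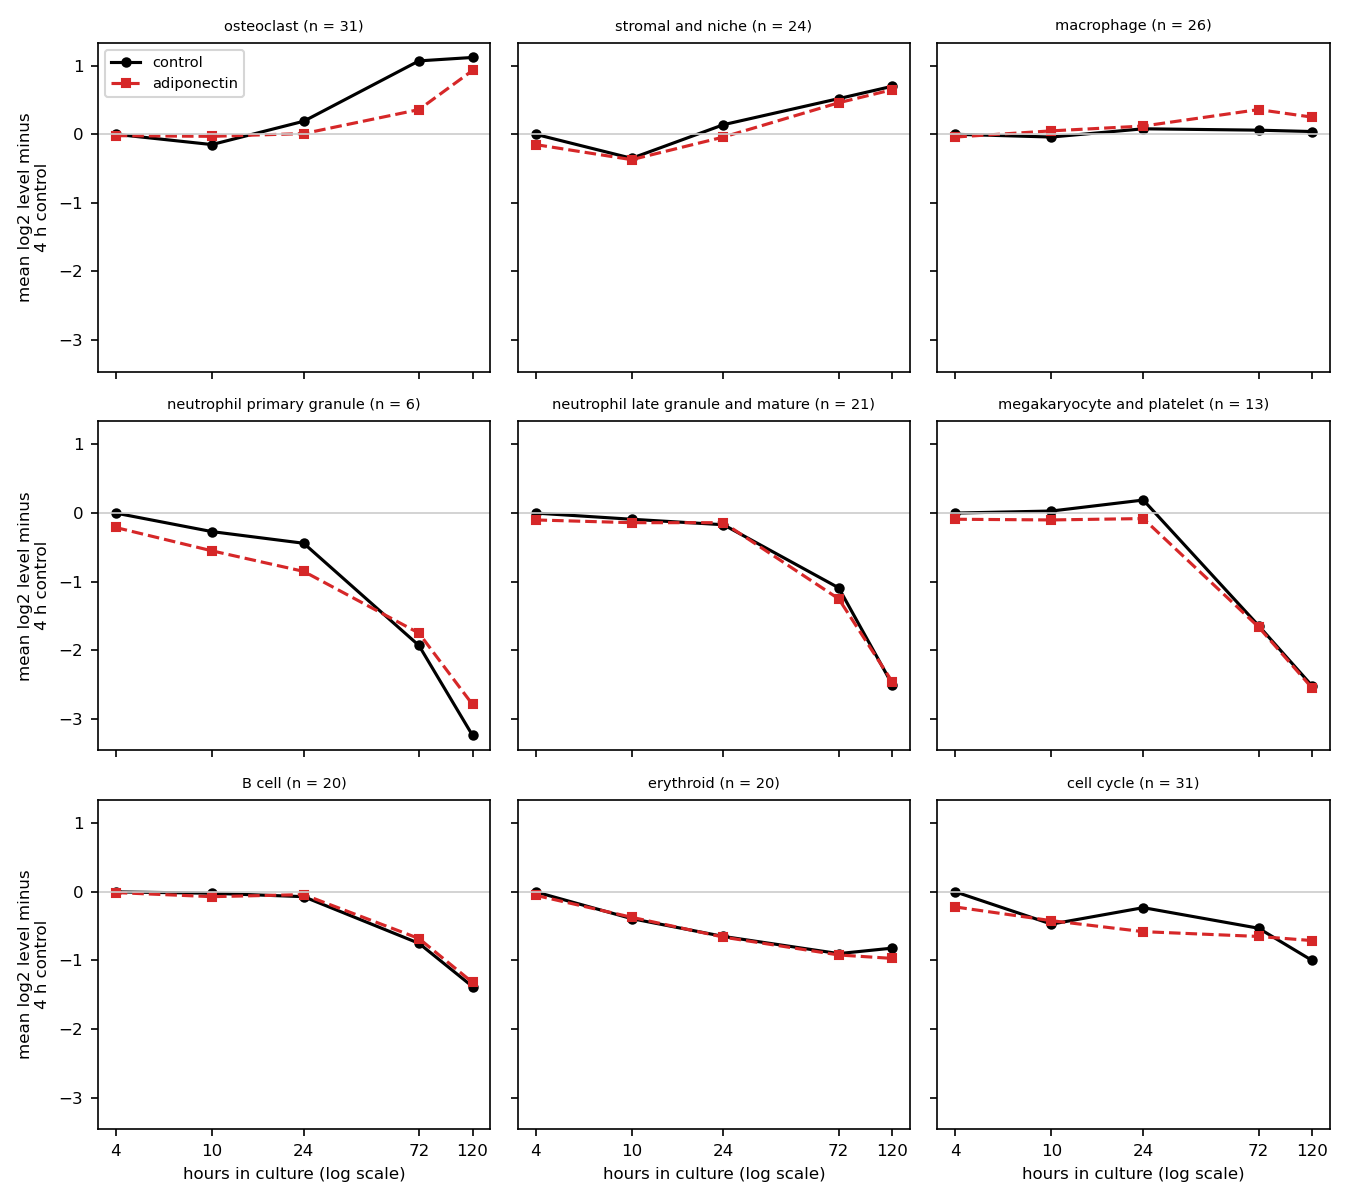
Mean level of 9 gene lists minus their mean at 4 h in the control (vertical axis, log2) against hours in culture (horizontal axis, log scale), for control arrays (black circles) and adiponectin arrays (red squares), 1 array per point. The osteoclast mean climbs from 24 to 72 h in the control and mostly after 72 h with adiponectin, while the neutrophil, megakaryocyte and B cell means are lower at 120 h than at 24 h in both sets.

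Few macrophage genes passed the test. Of 26 measured, 1 rose and 3 fell, with a median of 0.10 beside 0.08 for all genes. Csf1r, the M-CSF receptor, was at 13.10 or less early and at 13.29 and 13.35 late, and Adgre1, F4/80, at 12.94, 12.90, 12.98, 13.09 and 13.05. Mrc1, another macrophage marker, was at 11.75, 11.10, 11.73, 12.22 and 12.92 (1.05 ± 0.26, limma adjusted p = 0.0516). None of these passed the test. At an unadjusted limma p under 0.05, 7 of the 26 rose and 3 fell. C1qa, a complement component of tissue macrophages, rose by 0.75 ± 0.16, and Marco, a scavenger receptor, Cd5l and Fcgr1 fell. Of 11 monocyte genes 1 rose, Fn1, fibronectin (0.92 ± 0.13), and 4 fell. Ccr2, the chemokine receptor of inflammatory monocytes, went from 11.45, 11.07 and 11.07 to 10.17 and 8.26, and Plac8 from 11.64, 11.30 and 11.51 to 10.09 and 8.45. Of 18 dendritic cell and MHC class II genes 1 rose and 4 fell. Itgax, CD11c, was the rise, at 9.83, 9.77, 10.42, 11.11 and 11.29, and Siglech, a receptor of plasmacytoid dendritic cells, fell from 9.78, 9.62 and 9.64 to 8.38 and 7.70. Flt3, a growth factor receptor, and H2-Ab1, a class II chain, fell as well (-1.01 ± 0.15 and -0.61 ± 0.12). Macrophage falls numbered 0 without the 10 h or 120 h array and 1 without 4 h or 24 h, monocyte falls 2 without the 4, 10, 24 or 120 h array, and dendritic cell falls 1 without 120 h. The call did not hold with 1 array left out for Fn1 and Flt3 (120 h), Itgax (4 or 120 h), Plac8 (4, 10 or 24 h), C1qa and H2-Ab1 (4, 10 or 120 h), Marco (10, 72 or 120 h), and Cd5l, Fcgr1 and Ccr2 (4, 10, 24 or 120 h), with adjusted p up to 0.412.

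Few inflammatory genes passed the test in untreated cultures. Of 30 cytokine and chemokine genes 2 rose, Il1rn, the interleukin 1 receptor antagonist (0.71 ± 0.15), and Ccl9 (0.51 ± 0.12), and 3 fell, Il12a (-1.57 ± 0.16), Il1a and Tnf (-0.65 ± 0.14). Il1b differed by -1.01 and Il6 by -0.50, and neither passed the test. Of 24 NF-kB pathway genes 0 rose and 0 fell by limma (2 and 2 at an unadjusted p under 0.05), with a median of 0.04. Of 28 interferon response genes 1 rose, Iigp1, a GTPase (1.69 ± 0.36), and 1 fell, Ifi205 (-1.93 ± 0.46). These counts are near the shares of all genes, 3.08% and 3.68%, so no change of the list is read from them. Of 26 immediate early genes 0 rose and 4 fell, Nr4a1, Btg2, Zfp36 and Gadd45b, by 0.54 to 1.11 on the log2 scale; 0 fell without the 120 h array and 2 without 4, 10 or 24 h, and 2 rose without 24 h. Of the cytokine and chemokine genes 5 rose without the 24 h array and 0 without 4, 10 or 120 h, and 3 interferon response genes fell without 72 h. Of 16 alternative activation genes 1 fell, Chil3, which neutrophils also carry. Arg1, arginase 1, was highest at 4 h, at 9.61 against 7.27 to 8.43 later; by slope it fell by 0.44 ± 0.05 per doubling. The call was lost with 1 array left out for Nr4a1 and Btg2 (120 h), Chil3 (4, 10 or 24 h), Il1rn (4, 10 or 120 h), Ifi205 and Zfp36 (4, 10, 24 or 120 h), Ccl9 and Iigp1 (4, 10, 72 or 120 h), and Tnf and Gadd45b (4, 10, 24, 72 or 120 h), with adjusted p up to 0.363.

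Few proliferation genes passed the test. Of 31 cell cycle genes 0 rose and 3 fell, with a median of -0.52, and 17 had both late values below all early ones, against 15.7% of all genes. At an unadjusted limma p under 0.05, 19 of the 31 fell, against 1958 of all 19938 genes. Kif11, the mitotic kinesin, was at 11.17, 10.47, 10.52, 9.98 and 9.37 (-1.04 ± 0.25; adjusted p = 0.0487), Nusap1, a spindle protein, fell by 0.96 ± 0.23 on the log2 scale and Mybl2, a cell cycle transcription factor, by 0.56 ± 0.13. Mki67 was at 12.05, 11.47, 11.35, 11.37 and 10.89 and did not pass the test. Of this list 0 genes were called without the 4 h, 24 h or 120 h array, while 7 genes were called without 72 h and 9 under median centring of the arrays. Of 29 DNA replication genes 0 rose and 2 fell, Cdc45 (-0.86 ± 0.15) and Rfc4 (-0.71 ± 0.16), while 10 fell at an unadjusted limma p under 0.05. With 1 array left out, 0 fell without the 4 h or the 120 h array, 1 without 24 h and 6 without 72 h. Of 12 histone genes 2 fell, H2ac4 and H2bc3, and H1f2 rose; histone genes are near-identical copies, so that their values are uncertain. Calls lost with 1 array left out were those of Cdc45 (4 or 120 h), H2bc3 (4, 10 or 120 h), H2ac4 (4, 24 or 120 h), Kif11, Nusap1 and Rfc4 (4, 10, 24 or 120 h), and Mybl2 and H1f2 (4, 24, 72 or 120 h), with adjusted p up to 0.465.

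The windows of 2 cell cycle genes are shown because the list shared 2 motifs that the expression values did not choose: CCAAT and TTTGAA, searched on both strands, lay in the 300-base windows of 70.8% and 66.7% of 24 cell cycle genes with a window, against 41.7% and 17.3% of array genes. CCAAT is the box bound by NF-Y, and TTTGAA the cell cycle homology region. These motif shares describe the list and not its change, and the list itself was chosen with earlier results of these data known. Each line gives the 200 bases before the annotated start with matches in capitals (RefSeq, GRCm38.p6; the motifs do not overlap here).
Kif11 (chr19:37376182-37376381, plus strand): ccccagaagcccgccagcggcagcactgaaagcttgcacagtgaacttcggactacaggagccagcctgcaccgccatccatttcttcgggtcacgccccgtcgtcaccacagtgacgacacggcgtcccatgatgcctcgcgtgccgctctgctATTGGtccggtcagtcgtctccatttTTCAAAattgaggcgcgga
Prc1 (chr7:80294276-80294475, plus strand): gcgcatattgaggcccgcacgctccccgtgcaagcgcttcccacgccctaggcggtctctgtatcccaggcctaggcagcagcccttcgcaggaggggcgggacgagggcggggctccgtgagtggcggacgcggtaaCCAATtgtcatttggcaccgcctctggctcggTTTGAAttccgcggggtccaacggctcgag
In Kif11 both matches are on the opposite strand. Prc1 has another annotated start, and the 200 bases before that one (chr7:80294251-80294450) held the same CCAAT. They ended inside the same TTTGAA match, which runs past that start. Prc1, which bundles spindle microtubules, differed by -0.79 and did not pass the test of late against early (adjusted p = 0.0567), while its slope fell by 0.23 ± 0.05 log2 units per doubling (adjusted p = 0.0346; up to 0.289 without the 4, 10, 72 or 120 h array).

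Housekeeping and metabolic lists gave the background. By limma, 0 genes rose and 0 fell among 39 oxidative phosphorylation genes (median 0.19), 22 ribosomal protein genes (0.04), 20 ribosome biogenesis genes (-0.07), 18 heat shock and unfolded protein genes (-0.08), 18 NRF2 target genes (-0.06) and 13 reference genes (0.16). At an unadjusted p under 0.05, 6 rose and 1 fell in the first of these lists, 0 and 2 in the ribosomal protein list, 0 and 1 in ribosome biogenesis, 1 and 1 in heat shock, 0 and 3 in the NRF2 list and 3 and 1 in the reference list. In lists given above with 0 rises, the unadjusted count of rises was 0 for the megakaryocyte, B cell, erythroid, cell cycle and DNA replication lists, 1 for primary granules and for mast cells with basophils and eosinophils, 2 for the progenitor, regulator and endothelial lists, 4 for immediate early genes and 5 for T and NK cells. In those given with 0 falls it was 1 for the stromal list and 0 for the osteoblast and proton pump lists. Over all genes 3.68% fell, the share to set beside the falls that follow. Among 20 glycolysis and hypoxia genes 1 fell, Egln3, a prolyl hydroxylase (-1.39 ± 0.24). Among 19 fatty acid genes 3 fell, Fads2, a desaturase (-1.50 ± 0.17), Slc27a4 and Elovl5 (1 without the 4, 10 or 120 h array), and among 20 cholesterol synthesis genes 1, Idi1 (-0.72 ± 0.13; 2 fell without 10 h). Among 11 LXR targets 1 fell, Apoc1 (-0.75 ± 0.12), and among 15 iron genes 1, Lcn2, lipocalin 2, which neutrophils also store (-1.51 ± 0.35). The medians of the ribosomal protein, glycolysis, NF-kB, lysosome, inflammatory, iron, endothelial, LXR and regulator lists changed sign under at least 1 scaling, so no direction is read from them. With 1 array left out the call was lost for Apoc1 (120 h), Egln3 and Idi1 (4 or 120 h), Elovl5 and Lcn2 (4, 10, 24 or 120 h), and Slc27a4 (4, 10, 72 or 120 h), with adjusted p up to 0.393.

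Of 297 microRNA genes with a probe set, 11 rose (3.70% of them, against 3.08% of all genes) and 1 fell. Their median difference was 0.15 and 225 of them were higher late, in a range of levels (median 6.45) where the dim genes shifted upward as a whole. A probe set named for a microRNA gene does not tell the mature RNA from its precursor or host transcript. The sequences below are those of the fall, the largest rise, miR-155 and a pair of neighbours, as mature RNAs in RefSeq with bases 2 to 8, the seed that pairs with targets, in capitals; no 2 of the 21 mature sequences held for 11 of the 12 called genes (all but Mir30b) shared a seed.
mmu-miR-142a-5p (chr11:87756867-87756887, plus strand): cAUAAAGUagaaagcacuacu
mmu-miR-142a-3p (chr11:87756903-87756925, plus strand): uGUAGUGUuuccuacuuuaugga
mmu-miR-568 (chr16:43640665-43640684, plus strand): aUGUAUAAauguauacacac
mmu-miR-155-5p (chr16:84714143-84714165, plus strand): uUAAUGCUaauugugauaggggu
mmu-miR-99a-5p (chr16:77598940-77598961, plus strand): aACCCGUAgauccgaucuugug
mmu-let-7c-5p (chr16:77599672-77599693, plus strand): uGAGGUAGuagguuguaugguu
Mir142, a microRNA gene of blood cells, was at 9.97, 9.85 and 10.07 early and 9.07 and 8.53 late, a fall of 1.16 ± 0.17 on the log2 scale. Mir155, made from a transcript that activated immune cells induce, was at 7.73, 7.82 and 7.35 early and 8.37 and 8.69 late (0.90 ± 0.17). Mir99a and Mirlet7c-1 rose by 0.63 ± 0.13 and 0.84 ± 0.20, and their host transcript Mir99ahg went from 6.94, 6.99 and 7.40 to 7.99 and 8.40 (1.09 ± 0.18). These called microRNAs were picked after their values were seen. The call was lost with 1 array left out for Mir142 (120 h), Mir155 and Mir99ahg (4 or 120 h), Mir99a (4, 10 or 120 h), and Mirlet7c-1 (4, 10, 72 or 120 h), with adjusted p up to 0.372.

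Few genes stood out at 1 time point except at 120 h. With a gap of at least 1 log2 unit to the other 4 control arrays, 7 genes (0.0351% of all) were highest and 2 (0.01%) lowest at 4 h, 2 (0.01%) and 4 (0.0201%) at 10 h, 1 (0.00502%) and 0 at 24 h, and 0 and 0 at 72 h. At 120 h 17 genes (0.0853%) were highest and 122 (0.612%) lowest. In the adiponectin arrays, where 0.271% and 0.441% of genes had such a gap at 120 h, 14 of those 17 and 70 of those 122 did. Of the genes set apart at 4 h, 1 of the 7 highest and 0 of the 2 lowest had the gap there too. Of those at 10 and 24 h, 0 had it. Igf2, insulin-like growth factor 2, was at 8.19, 7.94, 8.25, 9.25 and 11.31, and Dio3, the deiodinase that inactivates thyroid hormone, at 6.62, 6.56, 7.04, 7.72 and 9.33. At 4 h Mt2, a metallothionein, was lowest, at 9.82 against 11.16 to 12.01 later, but it was not lowest at 4 h in the adiponectin arrays. Single arrays have no replicate, so these gaps carry no test.

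The lists differed in when they changed. The median member of the osteoclast list moved by 0.09 from 4 to 24 h, 0.88 from 24 to 72 h and 0.03 from 72 to 120 h. The megakaryocyte list moved by 0.13, -1.88 and -0.59 over the same steps, and the primary granule list by -0.50, -1.75 and -1.51. The erythroid list moved by -0.41 in the first step and by -0.07 and 0.06 after it. These are medians over members on 1 array per time, given as a description. By the slope on log2 hours, 14 of 31 osteoclast, 9 of 24 stromal and 1 of 17 proton pump genes rose, against 2.57% of all genes. Falls were called for 6 of 13 megakaryocyte, 7 of 20 B cell, 4 of 20 erythroid and 5 of 31 cell cycle genes, against 2.46% of all genes. In the osteoclast list 1 gene fell by slope, and of 18 dendritic cell genes 1 rose and 1 fell. By slope 2 of 30 inflammatory genes rose and 0 fell, 2 of 26 immediate early genes rose and 2 fell, and 1 of 24 NF-kB pathway genes rose. No direction of a list is read from slope counts of 1 or 2.

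The adiponectin arrays, which share no sample with the control arrays, showed the same direction for nearly all called genes. Of the 614 rises 593 (96.6%) had the same sign there, where 43.1% of all genes were higher late, and 324 passed the test on their own. Of the 733 falls all 733 had the same sign, where 56.9% of all genes were lower late, and 484 passed; 0 were called the opposite way. The adiponectin arrays by themselves called 814 rises (4.08%) and 727 falls (3.65%). The slope on log2 hours was called different between the sets for 0 genes by limma, with the smallest adjusted p at 0.269 and 276 genes higher and 1257 lower in adiponectin at an unadjusted p under 0.05. That split moved with the scaling: quantile normalizing the arrays again gave 437 and 455, and median centring gave 644 and 496, with 0 called in either. In osteoclast genes the adiponectin values were lower: at 72 h 27 of 31 were below the control, with a median difference of -0.61, and at 120 h 25 of 31, with -0.16. Of all 19938 genes 10568 were below the control at 72 h and 11262 at 120 h, with medians of -0.01 and -0.03. Their slopes were lower with adiponectin in 24 of 31, against 59.8% of all genes, 5 at an unadjusted p under 0.05 and none after adjustment, so a difference in slope was not called for any of them. Oscar rose by 2.42 between early and late adiponectin arrays against 3.66 in the control, and Snx10 differed by 0.15 there. Nkg7, which fell by 2.69 on the log2 scale in the control, differed by -0.39 with adiponectin; its slope difference of 0.61 had an adjusted p of 0.503.

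**Figure D5:**
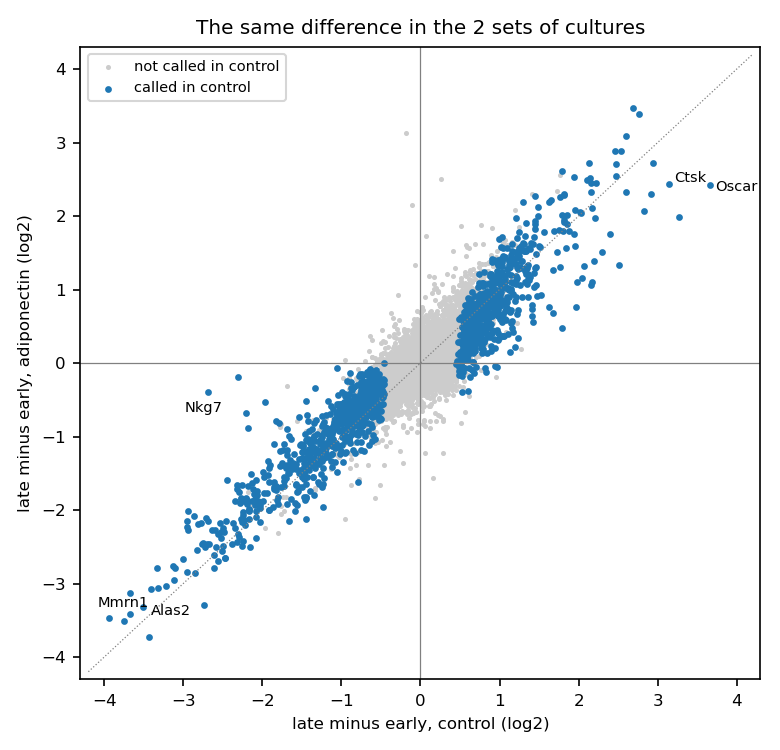
Late minus early difference of each of 19938 genes in the adiponectin arrays (vertical axis, log2) against the same difference in the control arrays (horizontal axis, log2), with the genes called in the control in blue and the line of equality dotted. Most falls lie close to the line, the rises of Oscar and Ctsk lie below it, and Nkg7 lies near 0 on the vertical axis.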

How the data were processed

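The 10 cultures each gave 1 Affymetrix whole-transcript array of total RNA. The authors deposited log2 values that were already normalized: RMA, Affymetrix Expression Console and Partek are named in the submitters' processing notes without version, role or order. For the genome build and background settings, the sources used here give nothing. The precision is limited by the number of arrays.

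Of 35556 probe sets, 21789 carried 1 gene symbol in the platform annotation, 1621 several and 12146 none, and only the first were used. Entrez identifiers of 21698 matched the RefSeq gene table and changed 0 symbols. The probe set with the highest mean stood for each of the 999 genes with several, which left 19938 genes. Differences and slopes came from moderated linear models (limma 3.58.1, R 4.3.3), tested on both sides and adjusted by Benjamini and Hochberg's method over all 19938 genes, with a call at an adjusted p under 0.05, with 3 residual degrees of freedom in the control fits and 6 in the fit of the slope difference. On simulated arrays 118 of 200 genes changed by 1 log2 unit between late and early, and 189 of 200 changed by 2, were called. The simulated noise was drawn independently for each gene and array, without the shared shift of dim genes. Recovery in the real cultures may therefore differ. The time point is the only link between a control and an adiponectin culture of the same number, so the fit of the slope difference without that block is the reported one.

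The members and the 41 gene lists were chosen with earlier results of these data known. The rule for named genes took the 12 largest rises and falls, the 5 steepest slopes each way, the genes most set apart at 1 time, the 4 largest differences and the smallest in each list, and a set of 20 markers, 255 genes in all. Apart from Mrc1 and Cd3d, 158 genes are named in the text. Of these, 118 fall under the rule and 40 were chosen after their values were seen. The other 137 of the 255, many of them the smallest differences of their list, are not printed, except Mrc1 and Cd3d, which are given above. Alternatives changed the scaling, the filter on dim genes, the probe set, the moderation, the time scale and the arrays used; cyclic loess normalization was added after the shift of dim genes was seen.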

Additional observations from a re-analysis of the deposited data

Results flagged for a closer look

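In 2 of the 41 gene lists the mean level in 1 of the 5 control arrays stood apart from the other 4, which chance gives in about 1 in 20 groups. The mean of the osteoclastogenesis regulators was 10.12, 10.10, 10.36, 10.12 and 10.10 at 4, 10, 24, 72 and 120 h: the gap between the 24 h array and the nearest other was 0.904 of the range, above the critical value of 0.71 for 5 samples. In the adiponectin arrays the same mean was 10.53, 10.26, 10.50, 10.35 and 10.29. The mean of the endothelial genes was 8.88, 8.77, 8.88, 8.78 and 8.51, lowest at 120 h with a gap of 0.711 of the range. With adiponectin it was 8.99, 8.76, 8.93, 8.57 and 8.56. Genes named for standing apart at 1 time were left out of this search, since such a gap chose them.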

How the results depend on the processing

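Each time had 1 culture, so change between times within a set counts as error. Between late and early arrays the 614 rises and 733 falls became 730 and 1182 under median centring of arrays, 0 and 1 with the ordinary test, and 1889 and 1731 with all 10 arrays; with 1 array left out they ranged from 88 to 821 and from 258 to 644. Rises were 45.6% of calls, and 38.2% after median centring. For the slope the 513 rises and 490 falls became 591 and 965 with median centring, 0 and 0 with the ordinary test (1984 and 1012 at an unadjusted p under 0.05), 1956 and 1728 with all 10 arrays, and 923 and 935 on hours; with 1 array left out they ranged from 70 to 740 and from 84 to 581. Repeated quantile normalization, cyclic loess, the mean of probe sets, the filter to 9969 brighter genes, the intensity trend and the rank order of times left both counts within 1.5 times. The slope difference was called for 0 genes in every setting by limma, also with time as a replicate block (620 and 1339 at an unadjusted p under 0.05). Of 133 called differences of genes in the text other than Cd3d, 133 lost the call in the ordinary test. The call was lost for 70 without the 120 h array, 62 without 4 h, 45 without 10 h, 28 without 24 h and 20 without 72 h. It was lost for 30 with the intensity trend, 17 with cyclic loess, 14 with quantile normalization, 3 with all 10 arrays and 1 with median centring. Among values that were not called, the sign turned for the slope of Cd3e (-0.009 with quantile normalization, -0.002 with median centring, -0.016 with cyclic loess) and of Il6 (from -0.25 to 0.139 with 1 array left out, the latter without 120 h), the difference of Sp7 (from -0.172 without 72 h to 0.943) and of Adgre1 (-0.024 with all 10 arrays), and both values of Tnfrsf11b (-0.021 to 0.624 and, for the slope, -0.080 to 0.191, each lowest without 120 h). The causes were not tested.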
